A study of Drosophila melanogaster with 6 samples.

Results

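The nuclear ribosomal RNA rows of the gene tables were taken by name: every row whose gene name contains rRNA and does not start with mt:, the prefix of mitochondrial genes. This gave 136 of 23932 rows. They comprise 4 rows for the ribosomal RNA precursor, 3 for 18S, 2 for 28S, 4 for 5.8S, 4 for 2S and 96 for 5S rRNA. The other 23 carry the suffix -Psi, which marks pseudogenes and fragments, and comprise 10 for 28S, 2 for 18S, 4 for 5.8S, 3 for 2S and 4 for 5S. All libraries were made from total RNA of S2R+, an established Drosophila melanogaster cell line of late embryonic origin. In 3 of the 6 libraries the cells had been given dsRNA for lacZ, a bacterial gene that serves as control (dsLacZ), and in the other 3 dsRNA for Fib, the gene of Fibrillarin (dsFib). No dose or time of treatment is stated. Nothing says that the 3 libraries of a group are separate cultures either, and the spread that the p-values measure may therefore be technical. In every library ribosomal RNA had been removed with riboPOOL probes, to which oligonucleotides against 5S and 2S rRNA were added, before TGIRT-seq, in which a thermostable group II intron reverse transcriptase copies the RNA.

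In flies, RNA polymerase I transcribes the ribosomal DNA of the X and Y chromosomes into a long precursor that holds 18S, 5.8S, 2S and 28S rRNA between transcribed spacers. Cleavage of the spacers frees the mature RNAs, and 5S rRNA is made apart by RNA polymerase III. The short 2S rRNA is particular to flies and their relatives, in which it pairs with 28S rRNA as the 3′ part of 5.8S does elsewhere. Fibrillarin places methyl groups on the precursor as the enzyme of the box C/D snoRNA particles. Some box C/D particles, U3 among them, take part in its cleavage. Copies of the ribosomal DNA repeat are nearly identical, so reads can be split between rows and the value of any single copy is uncertain.

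Depth was 11695250 to 15172052 counts per library. Fib itself was higher, not lower, in the libraries labelled dsFib. Its CPM, a count relative to library size and here scaled by edgeR's TMM factors, was 213.9, 257.4 and 227.4 in the dsLacZ libraries (replicates 1 to 3) against 1312, 954.9 and 994.3 in those labelled dsFib (log2 fold change 2.22, SE 0.15, edgeR's quasi-likelihood test with Benjamini-Hochberg adjustment, adjusted p = 0.00103, and 0.0602 with the replicate number as a block). This goes against the label, and directions are therefore given for libraries as labelled. If the labels of the groups were exchanged, every direction would turn, and this was not tested. Whether RNA of the dsRNA itself is counted in Fib was not tested either. Of 10 markers of this haemocyte-like line, 7 had a mean of at least 1 CPM, among them Pxn, srp and crq, while NimC1, eater and Sr-CI had means below 1 CPM. Their summed level was 456.1 to 478.6 CPM in dsLacZ and 448.7 to 487.5 CPM in the libraries labelled dsFib. Single markers moved in opposite directions within this sum. Groups did not overlap for crq, which was lower (log2 fold change -0.21), nor for Hml (0.89), fz (0.74), Col4a1 (0.25), NimC1 and Sr-CI, which were higher. Groups did not overlap in 23.2% of all genes. None of these markers passed the adjusted test, for which NimC1 and Sr-CI were too low. Markers of other cell types summed to 0.853 to 2.74 CPM for muscle, 0 to 0.83 CPM for fat body and 3.72 to 6.41 CPM for ovarian follicle cells over all 6 libraries, with Mhc, Fbp1, Lsp1alpha and yl at or near 0. The neuronal markers summed to 26.3 to 30.7 CPM and the germline markers to 102.1 to 122.3 CPM, where elav alone, and aub and bam, had a mean above 1 CPM.

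The first question was where the ribosomal RNA that escaped depletion was counted. It lay almost wholly in the precursor rows, which held 90.3% to 96.0% of all nuclear rRNA counts of a library, while the mature rows were empty. All 3 rows for 18S, both rows for 28S, all 4 for 5.8S and all 4 for 2S rRNA had 0 counts in all 6 libraries. A count of 0 allows a share of up to 1.98e-05% to 2.57e-05% of a library (3 counts) for what was assigned to a row. It sets no bound on the mature RNAs themselves, for the reason given in the next paragraph. Over all classes, 110 of the 136 rows were at 0 in every library, 14 had counts but failed the filter on low counts, and 12 were tested. Those 12 are the 4 precursor rows, 1 of the 2 18S-Psi rows and 7 of the 10 28S-Psi rows.

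Rows that lie within a precursor row in the annotation were all empty. In the BDGP6 annotation from Ensembl (dm6 coordinates), 3 precursor rows lie on the rDNA scaffold, all on the plus strand: pre-rRNA:CR45845 (42623 to 49485), pre-rRNA:CR45846 (55104 to 59294) and pre-rRNA:CR45847 (66807 to 74924). The fourth, pre-rRNA:CR45856, lies on X (23278007 to 23283731, minus strand). Within these 4 rows lie 14 shorter rRNA rows on the same strand, and 0 of the 14 had a count in any library. Among the 14 are all mature 18S, 28S and 5.8S rows, 3 of the 4 rows for 2S, 1 18S-Psi row and 1 28S-Psi row. Of the 118 rows outside the precursor rows, 22 had counts. These 22 are 9 of 9 28S-Psi rows, the remaining 18S-Psi row, 3 of 4 5.8S-Psi rows and 9 of 96 5S rows, while the 4 5S-Psi rows, the 3 2S-Psi rows and the remaining 2S row were empty there too. The precursor row is thus the one row with counts at the positions of mature 18S, 5.8S and 28S rRNA, and mature RNA and precursor cannot be told apart in these tables.

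**Figure D1:**
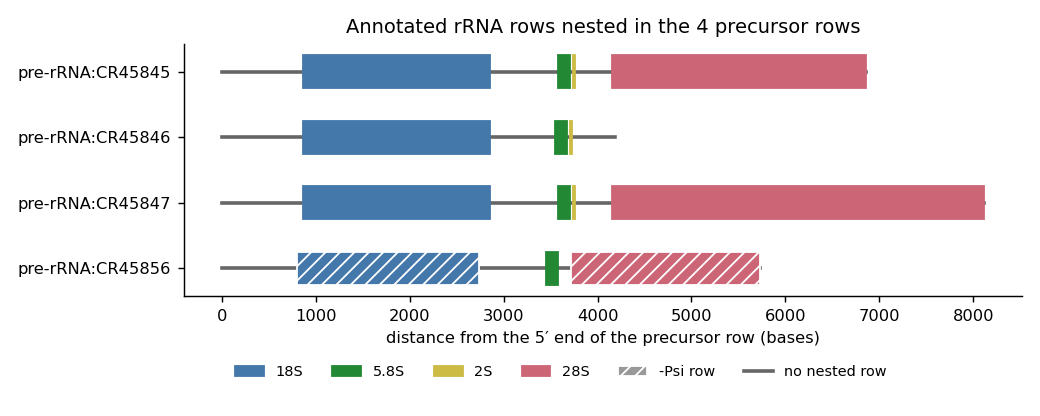
Map of the 4 precursor rows from their 5′ end, in bases, with the annotated rRNA rows nested in each as coloured boxes, -Psi rows hatched and stretches without a nested row as lines. pre-rRNA:CR45846 holds no annotated 28S row, and pre-rRNA:CR45845 holds a 28S row of 2715 bases against 3970 bases in pre-rRNA:CR45847.

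The 4 precursor rows differ in what they hold. The row pre-rRNA:CR45847 spans 8118 bases and opens with a leading spacer of 861 bases and an 18S row of 1995 bases. A spacer of 726 bases, 5.8S of 123 bases, a spacer of 28 bases and 2S of 30 bases come next. A further spacer of 385 bases leads to a 28S row of 3970 bases. The row pre-rRNA:CR45845 has the same spacing but stops after 2715 bases of 28S, at 6863 bases in all. The row pre-rRNA:CR45846 spans 4191 bases, holds no 28S row and has a spacer of 694 bases between 18S and 5.8S. Stretches without a nested row make up 48.7% of its length, against 24.6% in pre-rRNA:CR45847, 29.1% in pre-rRNA:CR45845 and 29.1% in pre-rRNA:CR45856. The X-linked row, pre-rRNA:CR45856, spans 5725 bases and contains pseudogene rows for 18S and 28S around a 5.8S row.

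Precursor rows took a smaller share of the counts in the libraries labelled dsFib. Of all counts, they held 0.607%, 0.612% and 0.607% in the dsLacZ libraries and 0.530%, 0.428% and 0.498% in the 3 labelled dsFib. The dsLacZ libraries lay close together and every library labelled dsFib lay below all of them. The 95% Wilson intervals of the shares, which cover counting error only, reached from 0.602% to 0.616% over the dsLacZ libraries and from 0.424% to 0.535% over those labelled dsFib. The means were 0.609% ± 0.00278 and 0.485% ± 0.0525 (SD, n = 3 each), a 1.254-fold lower share. By exact permutation, two-sided, p was 0.1, below which 3 libraries against 3 cannot go, and 0.3 after adjustment over the 3 classes with at least 3 counts in every library.

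The same sum did not pass the test across all genes. As 1 row in the table it had a log2 fold change of -0.29 (SE 0.16, 95% interval -0.66 to 0.08, edgeR adjusted p = 0.419). Of the 8293 rows of that fit, 0.904% passed. Mitochondrial rRNA, which is made in mitochondria and enters no nucleolus, took far more of each library. Its share was 5.36%, 7.80% and 7.85% in the dsLacZ libraries against 6.58%, 5.20% and 5.84% in those labelled dsFib, and the groups overlapped (exact permutation p = 0.3). What depletion left and what the cells held cannot be told apart in these shares, nor can fewer cells and less RNA per cell in bulk RNA.

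**Figure D2:**
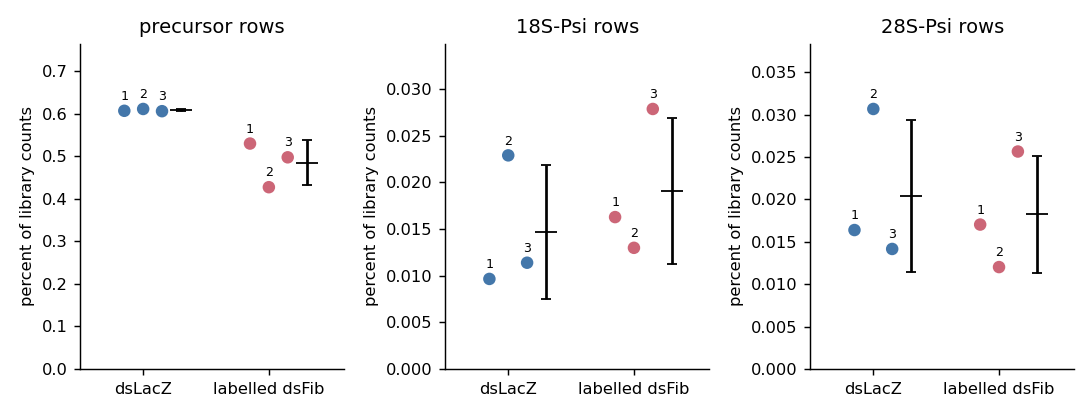
Share of each library's counts in the summed precursor, 18S-Psi and 28S-Psi rows, in percent; points are libraries with their replicate number, and bars give mean and SD of 3. The precursor share is 0.607% to 0.612% in the dsLacZ libraries against 0.428% to 0.530% in those labelled dsFib, while both -Psi classes overlap and are highest in dsLacZ replicate 2 and the library labelled dsFib replicate 3.

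Copies of the precursor differed widely in level. Per length, in the TPM that the authors deposited, pre-rRNA:CR45845 had 280.2 ± 34.9 in the dsLacZ libraries against 214.3 ± 11.6 in those labelled dsFib (SD, n = 3 each). The copy with the longer 28S row, pre-rRNA:CR45847, had 55.6 ± 12.04 and 43.7 ± 8.68 TPM. The other 2 rows were lower still, with 17.4 ± 1.10 and 12.8 ± 1.07 TPM for pre-rRNA:CR45856 and 15.1 ± 2.93 and 7.93 ± 1.15 TPM for pre-rRNA:CR45846. In both groups pre-rRNA:CR45845 was highest and pre-rRNA:CR45847 next. The lower pair overlapped in the dsLacZ libraries, whereas in the libraries labelled dsFib pre-rRNA:CR45846 lay below pre-rRNA:CR45856.

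The row without a nested 28S row showed the largest difference among the 4. Its TMM-scaled CPM was 147.8, 163.6 and 140.5 in the dsLacZ libraries against 86.9, 65.4 and 105.7 in those labelled dsFib, so that the groups did not overlap. The log2 fold change of pre-rRNA:CR45846 was -0.81 (SE 0.17, 95% interval -1.18 to -0.43, unadjusted p = 9.71e-04), or 1.75-fold lower. It did not pass over the 8302 genes tested (edgeR's quasi-likelihood test, adjusted p = 0.063), but passed in DESeq2 (adjusted p = 0.00197), with no filter on low counts (adjusted p = 0.00163) and without dsLacZ replicate 2 (adjusted p = 0.0343). Among all genes, 0.903% passed the edgeR test, 3.85% DESeq2, 2.12% the fit with no filter and 3.63% the fit without dsLacZ replicate 2. Leaving out any other library gave adjusted p-values between 0.0879 and 0.295, and adding the replicate number as a block gave 0.219.

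The other 3 copies had smaller differences, and pre-rRNA:CR45847 and pre-rRNA:CR45856 overlapped between groups. The row pre-rRNA:CR45845 had 4143, 5267 and 4353 CPM in dsLacZ against 4107, 3201 and 3940 in those labelled dsFib. Its groups were separate by a narrow margin, and its log2 fold change was -0.29 (SE 0.16, adjusted p = 0.405). The row pre-rRNA:CR45847 had 954.8, 1073 and 1159 CPM in dsLacZ against 1116, 641.1 and 978.6 in those labelled dsFib. These values overlapped, with a log2 fold change of -0.22 (SE 0.20, adjusted p = 0.643). The X-linked pre-rRNA:CR45856 had 186.5, 340.1 and 215.7 CPM in dsLacZ against 177.9, 181.0 and 204.0 in those labelled dsFib. Its dsLacZ values were spread by dsLacZ replicate 2, the groups overlapped, and its log2 fold change was -0.40 (SE 0.20, adjusted p = 0.386).

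**Figure D3:**
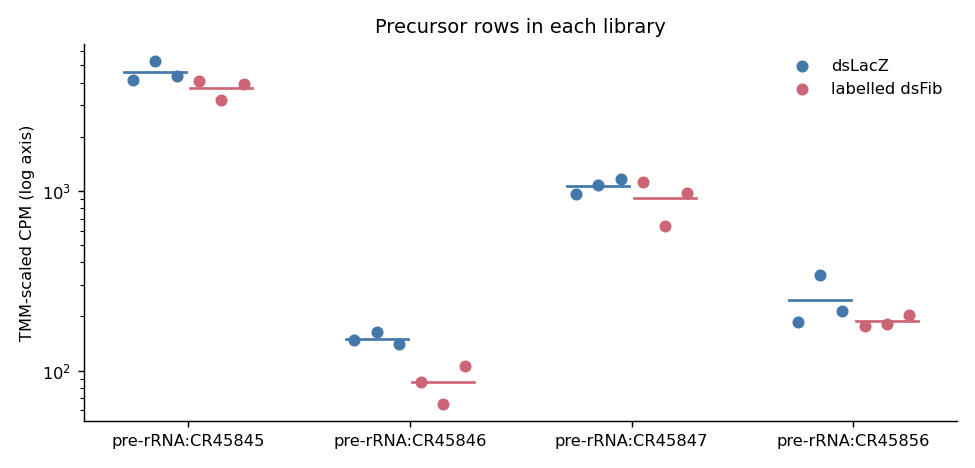
TMM-scaled CPM, on a log axis, of the 4 precursor rows in each library (points) with group means (lines). pre-rRNA:CR45846, at 140.5 to 163.6 CPM in dsLacZ and 65.4 to 105.7 CPM in the libraries labelled dsFib, has the widest gap between groups.

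The make-up of the precursor counts, which does not depend on scaling between libraries, was examined after these values had been seen. The row pre-rRNA:CR45846 held 2.72%, 2.39% and 2.40% of the counts of the 4 rows in the dsLacZ libraries, against 1.58%, 1.598% and 2.02% in those labelled dsFib. The groups did not overlap, dsLacZ being higher. Their 95% Wilson intervals, which cover counting error only and not the spread between libraries, were apart (1.49% to 2.12% in those labelled dsFib against 2.29% to 2.84% in dsLacZ). The difference of the means was -0.77 percentage points (exact permutation p = 0.1, the smallest possible, and 0.4 adjusted over the 4 rows). The other 3 rows overlapped between groups. Their means in dsLacZ and the libraries labelled dsFib were 75.8% ± 1.45 and 76.2% ± 1.86 for pre-rRNA:CR45845, 17.7% ± 2.04 and 18.2% ± 2.36 for pre-rRNA:CR45847, and 4.03% ± 0.826 and 3.86% ± 0.594 for pre-rRNA:CR45856 (SD, n = 3 each), with exact permutation p of 0.9, 0.7 and 0.8.

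Rows named as 18S and 28S pseudogenes were compared next, as the only rows that separate small-subunit from large-subunit sequence. The single counted 18S row, 18SrRNA-Psi:CR41602 (X, 23211192 to 23213166, plus strand), had 86.2, 255.9 and 110.1 CPM in dsLacZ against 168.3, 124.0 and 292.4 in those labelled dsFib. The groups overlapped, dsLacZ replicate 2 and the library labelled dsFib replicate 3 being the highest, and the log2 fold change was 0.37 (SE 0.42, adjusted p = 0.724). In the most abundant 28S pseudogene row, 28SrRNA-Psi:CR45851 on the rDNA scaffold (35941 to 38740, plus strand), levels were 82.8, 190.7 and 71.1 CPM in dsLacZ against 87.2, 51.8 and 149.1 in those labelled dsFib. The same pair of libraries was again highest in each group, and the log2 fold change was -0.26 (SE 0.44, adjusted p = 0.827). Nuclear tRNA, as a share of counts, was also highest in each group in these libraries, with 10.8%, 18.3% and 11.1% in dsLacZ and 14.9%, 13.4% and 15.3% in those labelled dsFib; its part in the levels of these rows was not tested.

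The extremes of the 12 tested rows were both 28S pseudogene rows of the X chromosome. The most negative log2 fold change was that of 28SrRNA-Psi:CR40741 (X, 23239718 to 23240975, plus strand), with 1.90, 5.37 and 1.56 CPM in dsLacZ against 0.619, 0.298 and 0.761 in those labelled dsFib. All 3 libraries labelled dsFib lay below all dsLacZ libraries, on 3.68 to 11.2 counts each. The log2 fold change was -2.36 (SE 0.64, 95% interval -3.82 to -0.91, edgeR adjusted p = 0.131), or -1.61 without dsLacZ replicate 2. The row passed in DESeq2 (adjusted p = 0.0128), as did 3.85% of all genes, and with no filter on low counts (adjusted p = 0.0347), as did 2.12%. The most positive log2 fold change was that of 28SrRNA-Psi:CR45855 (X, 23205822 to 23206525, plus strand), with 10.5, 12.8 and 6.68 CPM in dsLacZ against 15.7, 13.0 and 16.4 in those labelled dsFib. These groups too were separate, by a narrow margin, and the row did not pass (log2 fold change 0.59, SE 0.24, adjusted p = 0.278).

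The 4 remaining 28S pseudogene rows were tested as well. The 2 on plus-strand stretches with the higher levels were 28SrRNA-Psi:CR40596 (rDNA scaffold, 16936 to 22940) with 46.7 ± 27.5 and 31.8 ± 14.9 CPM, and 28SrRNA-Psi:CR45859 (X, 23214452 to 23217140) with 28.5 ± 13.0 and 39.1 ± 9.84 CPM in dsLacZ and the libraries labelled dsFib (SD, n = 3 each). Their log2 fold changes of -0.55 (SE 0.42) and 0.46 (SE 0.31) lay on opposite sides of 0, and neither passed. Those on the minus strand were rare: 28SrRNA-Psi:CR41609 had 3.41 ± 4.47 and 3.11 ± 2.76 CPM, and 28SrRNA-Psi:CR45860 had 2.14 ± 1.34 and 1.06 ± 0.788 CPM. Neither passed, with adjusted p-values of 0.976 and 0.559.

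Over all 12 tested rows, 0 passed the edgeR test and 0 limma-voom, against 0.903% and 0.807% of all genes. DESeq2 called 2 of the 12, both lower, pre-rRNA:CR45846 and 28SrRNA-Psi:CR40741, against 3.85% of all genes. With an unadjusted p below 0.05 there were 2 lower rows and 1 higher, beside 8.26% and 7.67% of all genes (15.9% in either direction). Groups did not overlap, toward lower levels, in 3 rows, where 12.1% of all genes did, and toward higher levels in 1, where 11% did. The log2 fold change was below 0 in 9 rows and above 0 in 3, with a median of -0.27 beside -0.01 over all genes tested. The 4 precursor rows were all below 0, but they share reads and libraries and are not independent.

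**Figure D4:**
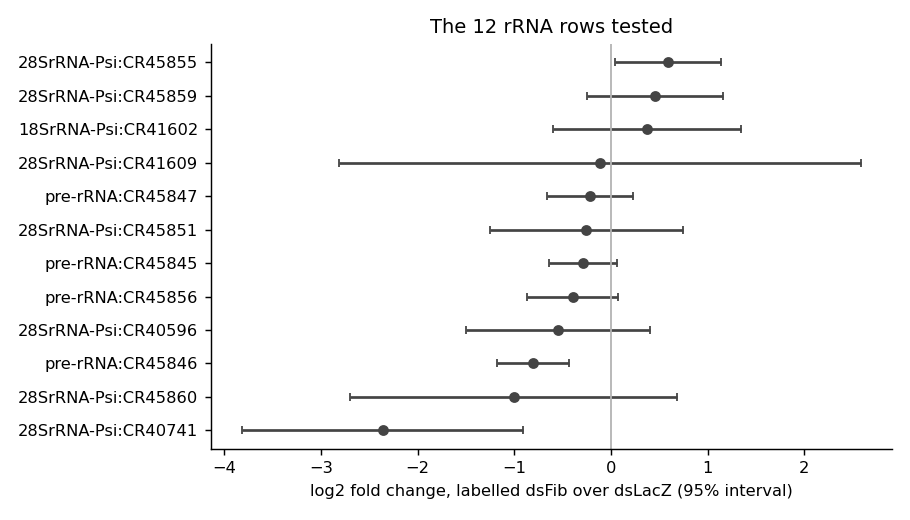
Log2 fold change of each of the 12 tested rRNA rows, libraries labelled dsFib over dsLacZ, with the 95% interval of the edgeR fit; the vertical line marks 0. The intervals of pre-rRNA:CR45846 (-1.18 to -0.43), 28SrRNA-Psi:CR40741 and 28SrRNA-Psi:CR45855 leave out 0, and no row passed the threshold after adjustment.

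Ratios of 28S to 18S within a library could be formed only from the pseudogene rows, since the mature rows held no counts. The log2 ratio of 28S to 18S counts was 0.76, 0.42 and 0.31 in dsLacZ replicates 1 to 3, against 0.07, -0.11 and -0.12 in those labelled dsFib. All 3 libraries labelled dsFib lay below all 3 labelled dsLacZ, although the shares of both pseudogene classes overlapped between groups. The means were 0.50 ± 0.23 and -0.06 ± 0.10 (SD, n = 3 each), a difference of -0.56 (exact permutation p = 0.1, the smallest possible, and 0.2 adjusted over 2 ratios). The 18S side of this ratio is 1 row on X, whereas the 28S side sums 9 rows on X and the rDNA scaffold. These 28S rows differed in direction, with log2 fold changes of -0.55 for 28SrRNA-Psi:CR40596 and 0.46 for 28SrRNA-Psi:CR45859, neither of which passed. The part of this mix of rows in the ratio was not tested. The log2 ratio of precursor rows to these pseudogene rows was 4.21 ± 0.60 and 3.77 ± 0.48 and overlapped between groups (exact permutation p = 0.5). Ratios of 5.8S, 2S or 5S rRNA to the large RNAs could not be formed at counts this low.

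**Figure D5:**
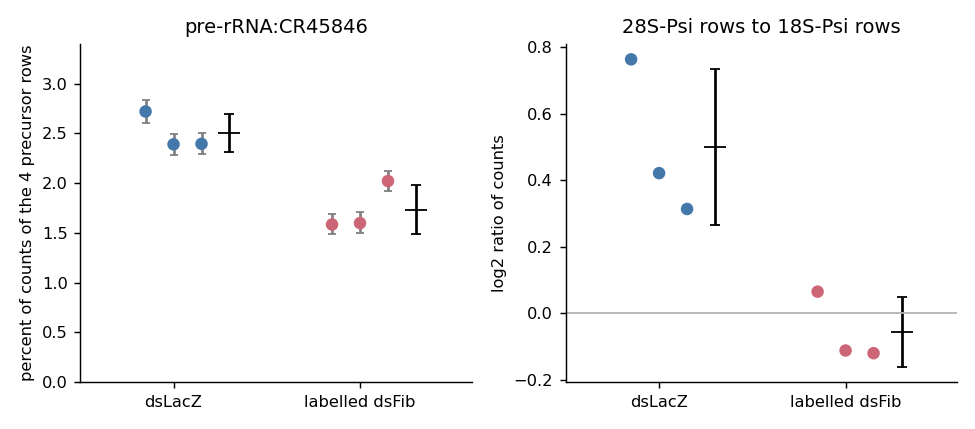
Left, pre-rRNA:CR45846 as a percent of the counts of the 4 precursor rows, with 95% Wilson intervals; right, the log2 ratio of 28S-Psi to 18S-Psi counts. Points are libraries in replicate order and bars give mean and SD of 3. In both measures the libraries labelled dsFib (1.58% to 2.02%, and -0.12 to 0.07) lie below the dsLacZ libraries (2.39% to 2.72%, and 0.31 to 0.76). A lower value means a smaller share of the row without a nested 28S row on the left. On the right it means less 28S-Psi relative to 18S-Psi.

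The rows of the small ribosomal RNAs held almost no counts. All 4 rows for 5.8S and 3 of the 4 for 2S lie within precursor rows, so counts of these RNAs cannot be told apart from those of the precursor. The 5S rows and their pseudogenes form 1 cluster on the minus strand of 2R, from 19729562 to 19766278, and 94 of these 100 rows are 135 bases long. Together the 96 5S rows held 1 count in dsLacZ replicate 2, 1 in the library labelled dsFib replicate 3 and 0 in the other 4 libraries, divided over 9 rows in fractions. The 5.8S pseudogene rows held 3, 7 and 1 counts in the dsLacZ libraries and 0, 1 and 3 in those labelled dsFib, and the 3 2S pseudogene rows held 0. Counts this low allowed no comparison between groups. Among these RNAs the depletion named oligonucleotides for 5S and 2S, and the near-identical copies of 5S share reads.

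Genes that make and cut these RNAs were followed in lists chosen by name. Of 44 tested genes in 5 lists, 0 rose and 0 fell in the edgeR test. Of all genes tested, 0.53% rose and 0.373% fell. With an unadjusted p below 0.05 there were 3 higher and 2 lower genes, beside 7.67% and 8.26% of all genes. The median log2 fold change was 0.05 beside -0.01 over all genes. For transcription by RNA polymerase I, 9 of 9 genes were tested, 5 lay above 0 and 4 below. Of these, RpI1, the largest subunit, had 164.2 ± 6.98 and 168.4 ± 7.87 CPM in dsLacZ and the libraries labelled dsFib, and Tif-IA, the initiation factor that recruits the polymerase, 146.3 ± 5.82 and 150.2 ± 9.16 CPM (SD, n = 3 each). Both differed by less than the spread between replicates. Genes with the smallest p were TAF1B, TAF1C-like, both of the promoter selectivity factor, and CG18600, named Polr1E today, with log2 fold changes of -0.31, -0.11 and -0.14 (adjusted p = 0.278, 0.735 and 0.746).

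Subunits that RNA polymerases I and III share gave 7 tested genes with a median log2 fold change of 0.04. The smallest p belonged to Rpb10 at 0.41 (SE 0.13, adjusted p = 0.181), followed by CG3756, named Polr1C today, at -0.32 (SE 0.12, adjusted p = 0.239) and Rpb12 at 0.17 (adjusted p = 0.597). For RNA polymerase III, which makes 5S rRNA, 13 of 14 genes were tested, with a median of 0.05. The smallest p belonged to Maf1, a repressor of this polymerase, with 41.7 ± 5.06 and 51.2 ± 2.80 CPM (log2 fold change 0.30, adjusted p = 0.254), Trf, which stands in for TBP at polymerase III promoters in flies, at 0.31 (adjusted p = 0.414) and CG12267, named Polr3C today, at 0.53 (SE 0.35, adjusted p = 0.507). None of these lists had a gene past the threshold.

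Proteins that bind 5S rRNA and the cleavage machinery closed the comparison. RpL5 and RpL11, which join 5S rRNA on its way into the large subunit, had log2 fold changes of 0.20 (SE 0.14, adjusted p = 0.521) and 0.25 (SE 0.12, adjusted p = 0.344), and Non3, the fly counterpart of yeast Rpf2, 0.20 (SE 0.12, adjusted p = 0.457). These 3 were the matched members of a list of 5. Of 12 tested genes for precursor cleavage and end formation, 8 lay above 0, with a median of 0.09. The RNA of RNase MRP, RNaseMRP:RNA, which in yeast cleaves the spacer between 18S and 5.8S, had the smallest p. Its groups did not overlap, with 235.0 ± 26.5 and 350.5 ± 61.6 CPM and a log2 fold change of 0.58 (SE 0.15, adjusted p = 0.12), and it passed in DESeq2 (adjusted p = 0.0189) and with no filter on low counts (adjusted p = 0.0216). Among all genes, 11% did not overlap toward higher levels, 3.85% passed in DESeq2 and 2.12% with no filter. Next were snoRNA:U3:54Ab, a gene of the U3 snoRNA, at 0.36 (adjusted p = 0.389) and RIOK1, a kinase of late 40S maturation, at 0.27 (adjusted p = 0.40), and neither passed.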

How the data were processed

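Total RNA of S2R+ cells was measured in 6 libraries, 3 per group, grouped by their titles. Per the file headers, the deposited tables hold for each gene an estimated count with its CPM (scaled by the authors to library size) and TPM (also to length). Named without roles, per the submitters' processing notes, are the build dm6 and the tools STAR, Bowtie2 and cutadapt 3.4; the table names point to CoCo as the counter, but no source used here gives its version, its annotation or how it treats nested or repeated genes. Between 7.12% and 9.29% of genes in a library had a fractional count.

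After rounding of the estimated counts, edgeR 4.0.16 (R 4.3.3) was used: filterByExpr (8302 genes left), TMM scaling and the quasi-likelihood test with the group as its single term, with Benjamini-Hochberg adjustment across all tested genes at 0.05. A second fit replaced the rRNA rows by 1 sum per class. Shares and ratios, from unrounded counts, were compared by two-sided exact permutation. The fit was tested on simulated data. Positions, and which rows lie within a precursor row, come from Ensembl's annotation of BDGP6. Of 54 listed names, 45 were matched to the tables directly or through the symbol table.

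The text names, in each class, the row with the highest level, rows past the threshold and the extremes among tested rows; in each list, the 3 genes with the smallest p; and Fib. Other rows, RpI1 and Tif-IA were chosen after their values were seen. The members, lists and tests were chosen with earlier results of these data known. Replicate numbers are not stated to pair the libraries, and the main fit used no pairing. No 2 libraries agreed within sampling noise. Alternatives were DESeq2 1.42.0, limma-voom (limma 3.58.1), other scalings and filters, a replicate block and leaving out each library.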

Additional observations from a re-analysis of the deposited data

How the results depend on the processing

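The precursor sum kept its direction in every alternative tried, with log2 fold changes between -0.38 and -0.16 when single libraries were left out and -0.30 with the replicate number as a block (adjusted p = 0.641). The number of rRNA rows called, 0 in the fit reported, was 2 with DESeq2, 2 with no filter on low counts, and 0 to 1 with a library left out; for the 5 gene lists it was 1, 1 and 0. The block fit called 1 gene of 8302 against 75, and deviations of same-numbered libraries correlated at -0.05, -0.30 and -0.15, while dsLacZ replicate 2 correlated best with dsFib replicate 3 (0.30). Over all genes, DESeq2 called 320, no filter 283 and total counts alone 31 (5 higher), against 75 (44 higher).

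Of the 8 tested pseudogene rows, 4 turned sign with a library left out; the cause was not tested. With a library left out, the log2 fold change ranged from -0.038 to 0.99 for the 18S-Psi sum (-0.044 to 0.99 for 18SrRNA-Psi:CR41602) and from -0.51 to 0.40 for the 28S-Psi sum. It ranged from -1.003 to 0.048 for 28SrRNA-Psi:CR40596, from -0.76 to 1.89 for 28SrRNA-Psi:CR41609 (0.52 with the block) and from -0.72 to 0.32 for 28SrRNA-Psi:CR45851. The other 4 kept their sign, with -2.67 to -1.61 for 28SrRNA-Psi:CR40741, 0.38 to 0.80 for 28SrRNA-Psi:CR45855, 0.22 to 0.87 for 28SrRNA-Psi:CR45859 and -1.39 to -0.37 for 28SrRNA-Psi:CR45860. The log2 ratio of shares ranged from -0.0013 to 0.86 for 18S-Psi and from -0.49 to 0.26 for 28S-Psi. The 28S to 18S ratio kept its direction (-0.65 to -0.42). Differences in make-up ranged from -0.71 to 1.02 percentage points for pre-rRNA:CR45845, -0.46 to 1.86 for pre-rRNA:CR45847 and -0.47 to 0.30 for pre-rRNA:CR45856, and from -0.91 to -0.66 for pre-rRNA:CR45846. TAF1C-like ranged from -0.20 to 0.0060 and CG18600 from -0.26 to 0.061. The 28S-Psi sums turned sign without dsLacZ replicate 2 and without dsFib replicate 2, and the 18S-Psi sums without dsFib replicate 3. For the make-up, signs turned without dsLacZ replicate 3 or dsFib replicate 2 (pre-rRNA:CR45845), and without dsLacZ replicate 2 or dsFib replicate 1 (pre-rRNA:CR45847 and pre-rRNA:CR45856). Fib had an adjusted p of 0.0602 with the block. Ratios with mature rows alone gave no value. The 5.8S, 2S and 5S rows held too few counts for a test.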

Other observations

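R2 and R1 are retrotransposons that insert at fixed sites of the 28S gene and are transcribed with the ribosomal DNA, and their rows were looked at after the rRNA values had been seen. The R2 row beside the X-linked pseudogenes, RR48361_transposable_element (X, 23220092 to 23223699), had 9.65, 9.06 and 8.95 CPM in dsLacZ against 21.1, 10.7 and 20.6 in those labelled dsFib. All libraries labelled dsFib lay above the dsLacZ libraries, the lowest of them by a narrow margin, as was so for 11% of all genes. The precursor share, which lay below in the same libraries, is an unscaled percent of counts and not the same measure. In the edgeR fit of class sums, which is scaled likewise, the precursor sum had a log2 fold change of -0.29 (SE 0.16, adjusted p = 0.419). The log2 fold change of the R2 row was 0.92 (SE 0.26, 95% interval 0.34 to 1.504, edgeR's quasi-likelihood test), and it did not pass the adjustment over all genes (adjusted p = 0.14). An R1 row, RR48395_transposable_element on 3L, had 7.60 ± 1.93 and 10.0 ± 2.34 CPM (SD, n = 3 each) and overlapped between groups (adjusted p = 0.491). A copy of the R1A1 element on 3L, FBti0020235, had 1.57 ± 0.23 and 2.79 ± 0.292 CPM and did not overlap between groups (log2 fold change 0.83, SE 0.35, adjusted p = 0.299). These R1 and R1A1 rows on 3L lie outside the ribosomal DNA of X and Y. The 5 rows for mir-10404, a microRNA encoded in the spacer between 18S and 5.8S, each held less than 1 count in every library. Positions of mir-10404-1 and mir-10404-2 fall within pre-rRNA:CR45845 and pre-rRNA:CR45847, where all nested rRNA rows were empty. Their lack of counts therefore says nothing about the level of the microRNA.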
